A study of Rattus with 12 samples.

Results

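The genes described here encode collagens and laminins of the basement membrane: Col4a1, Col4a2, Col15a1, Col18a1, Lama4, Lama5, Lamb1, Lamb2, Lamb3 and Lamc1. They were chosen by symbol, and 8 of the 10 have a row among the 17337 gene symbols of the count table. Col4a2 and Lamb1 were not analysed here. All 8 were among the 12271 genes tested. RNA was sequenced from 12 complex cultures of primary Sprague Dawley rat neurons, astrocytes and oligodendrocyte precursor cells, to ask how 4 days of the opioid fentanyl changed gene expression in them. There were 4 cultures per condition. Untreated cultures (A, G, M and P) received medium without fentanyl, low dose cultures (B, H, N and Q) received 0.01 μM, and high dose cultures (C, I, O and R) received 10 μM. All conditions share the cell types that were seeded, and the RNA is that of whole cultures, so fewer cells of a type and less RNA per cell cannot be told apart.

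Basement membranes are thin sheets of matrix that lie under epithelia and endothelia and around muscle, fat and Schwann cells. Laminins are trimers of an α, a β and a γ chain that assemble at the cell surface, and the collagen IV network, built from trimers of α chains, gives the sheet its strength. Nidogens, perlecan and agrin link the networks, and integrins and dystroglycan anchor cells to them. In the brain the basement membrane is found mainly around blood vessels, where endothelial cells, pericytes and astrocytes all contribute chains, and under the pia, where meningeal fibroblasts and astrocyte endfeet meet.

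Each culture had between 12059872 and 24813893 counts, and values are given as CPM, the count of a gene scaled to a common library size, after TMM scaling, which corrects for differences in depth and composition. CPM holds no correction for gene length, so levels are compared between cultures and not between genes. A floor of 3 counts corresponded to between 0.124 and 0.249 CPM. Col15a1 and Lamb3 had few counts, with 4 to 536 and 4 to 53 per culture. The culture letters are consecutive from one dose to the next, which gives the letter sets A-B-C and G-H-I, then M-N-O, then P-Q-R, and no source used here says what a set is. Markers of the labelled cells were found in all cultures, with summed levels of 2174 to 11880 CPM for 10 astrocyte markers, 232.4 to 865.6 CPM for 6 oligodendrocyte precursor markers and 2974 to 25860 CPM for 8 oligodendrocyte markers. Culture G stood apart from the other 11. The summed level of 10 neuron markers was 242.4 CPM in G against 2956 to 4305 CPM elsewhere, and all 10 were lower in G than in every other culture. Culture N also stood apart in its set, with a summed level of 10 fibroblast markers of 3752 CPM against 776.8 in M and 698.5 in O. The effect of leaving out G or N is given beside the fitted values it changes most.

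Col4a1 encodes the α1 chain of collagen IV, which with the α2 chain forms the network found in nearly all basement membranes. Its level was 27.3, 519.9, 59.0 and 38.0 CPM in the untreated cultures A, G, M and P. It was 25.2, 22.1, 249.4 and 35.6 CPM in the low dose cultures B, H, N and Q, and 30.6, 27.7, 65.7 and 44.4 CPM in the high dose cultures C, I, O and R. G was highest and N second, the other 10 cultures lay between 22.1 and 65.7 CPM, and the conditions overlapped. The mean was 161 ± 240 CPM (SD, n = 4) without fentanyl, 83.1 ± 111 CPM (SD, n = 4) at the low dose and 42.1 ± 17.3 CPM (SD, n = 4) at the high dose. Without G the untreated mean was 41.4 ± 16.2 CPM (SD, n = 3), so the order of the untreated and low dose means depended on that culture. The low dose mean rested in turn on N, and B, H and Q each lay below 41.4 CPM.

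Col18a1 encodes the α1 chain of collagen XVIII, a multiplexin and heparan sulfate proteoglycan whose C-terminal fragment is endostatin. Its level was 18.9, 184.7, 12.5 and 7.32 CPM in A, G, M and P, 16.0, 9.14, 19.5 and 11.4 CPM in B, H, N and Q, and 15.6, 7.67, 10.8 and 8.23 CPM in C, I, O and R. Only G was set far from the rest, at 16.3 times the median of the other 11 cultures, and without it the whole range was 7.32 to 19.5 CPM. Set A-B-C was the steadiest, with 15.6 to 18.9 CPM.

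Col15a1 encodes collagen XV, the other multiplexin, which lies at the outer face of basement membranes in muscle and vessels. Its level was 0.236, 34.8, 0.617 and 1.83 CPM in A, G, M and P, 0.539, 1.42, 5.09 and 2.48 CPM in B, H, N and Q, and 0.652, 0.702, 0.451 and 0.372 CPM in C, I, O and R. G was 53.4 times the median of the other 11 cultures, the largest such ratio among the 8 genes, and N was next with 5.09 CPM. The high dose cultures were the tightest group, 0.544 ± 0.158 CPM (SD, n = 4), but rested on 7 to 14 counts each. With so few counts the exact 95% Poisson interval of the level in O was 0.181 to 0.930 CPM and in Q was 1.73 to 3.43 CPM, intervals which cover counting error only.

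**Figure D1:**
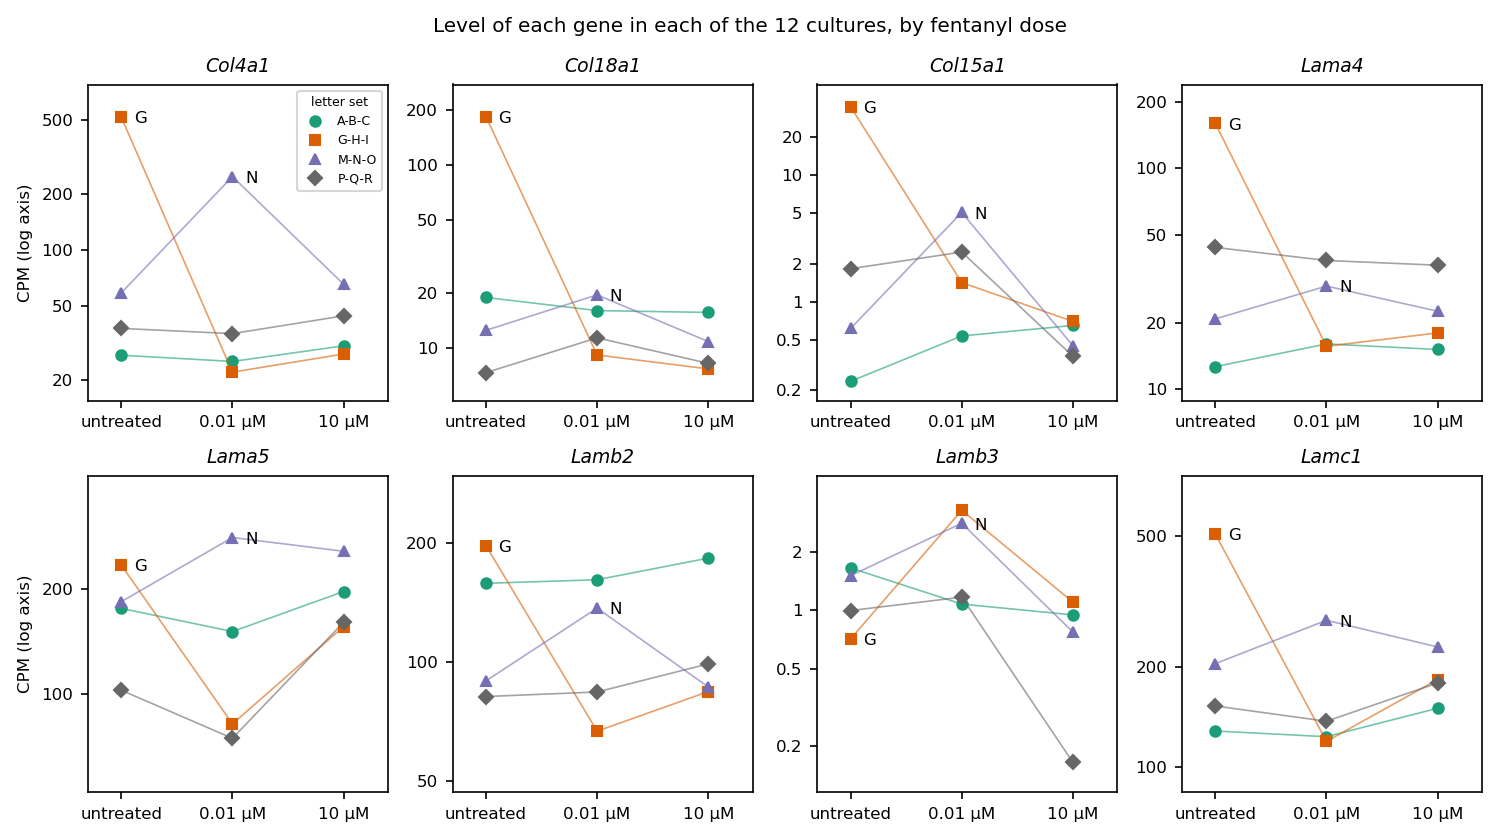
Level of each of the 8 genes in every culture, in CPM on a log axis, by fentanyl dose. Points are single cultures, marked by letter set, and lines join the letters of a set, which the labels do not describe as paired. G reaches 519.9 CPM for Col4a1 and 184.7 CPM for Col18a1, and N reaches 249.4 CPM for Col4a1 but only 19.5 CPM for Col18a1.

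The laminin α chains carry most of the receptor binding sites of the trimer. Lama4, the α4 chain of vascular and mesenchymal laminins, stood at 12.6, 159, 20.8 and 43.7 CPM in A, G, M and P, at 16.0, 15.6, 29.2 and 38.2 CPM in B, H, N and Q, and at 15.1, 18.0, 22.5 and 36.4 CPM in C, I, O and R. After G, the 3 cultures of set P-Q-R were highest at all 3 doses, with 36.4 to 43.7 CPM against 12.6 to 29.2 CPM in the other 8. Lama5, the α5 chain of mature epithelial and vascular basement membranes, stood at 175.9, 233.8, 183.8 and 102.5 CPM in A, G, M and P, at 151, 82.2, 280.6 and 74.7 CPM in B, H, N and Q, and at 196.5, 156, 256.3 and 160.4 CPM in C, I, O and R. It was not highest in G, and its range over all cultures, 3.76-fold, was far narrower than the 23.5-fold range of Col4a1. The ratio of Lama4 to Lama5 CPM, which is not corrected for length and is compared only between cultures, was 0.681 in G, 0.427 in P and 0.511 in Q. It was 0.227 in R and between 0.0718 and 0.190 in the other 8 cultures. The summed level of 10 astrocyte markers was 8065 CPM in G, 10300 in P, 11880 in Q and 8359 in R. In the other 8 cultures it was 2174 to 4774 CPM. Gfap was the largest part of the sum, with 4293 CPM in G, 5772 in P, 6867 in Q and 4585 in R. Single markers differed: 5 of the 10 were highest in G, but Aldoc was lowest there, at 225.3 CPM. Slc1a3 in G was 0.770 times the median of the other 11 cultures. The summed level of 6 oligodendrocyte precursor markers split the cultures in the same way. It was 865.6 CPM in G, 773.5 in P, 755.0 in Q and 806.1 in R, against 232.4 to 611.2 CPM in the other 8. Of these 6 markers 3 were highest in G, but Olig2 and Gpr17 there were 0.865 and 0.599 times the median of the other 11 cultures. The summed level of 10 microglia markers was lowest in set P-Q-R, 41.7 to 50.9 CPM against 360.4 to 1535 CPM in the other sets. The part of these cells in the Lama4 level was not tested.

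The β chains were measured through Lamb2 and Lamb3. Lamb2, the β2 chain of synaptic, renal and vascular laminins, stood at 158.5, 197.4, 89.8 and 82.0 CPM in A, G, M and P, at 161.8, 67.0, 137.2 and 84.2 CPM in B, H, N and Q, and at 183.5, 84.4, 86.7 and 99.2 CPM in C, I, O and R. The 3 cultures of set A-B-C were high at every dose, with 158.5 to 183.5 CPM, and outside that set only G and N passed 99.2 CPM. Lamb3, the β3 chain of laminin-332, the laminin of skin and other stratified epithelia, was low throughout. Its level was 1.65, 0.714, 1.51 and 0.998 CPM in A, G, M and P, 1.08, 3.27, 2.81 and 1.17 CPM in B, H, N and Q, and 0.948, 1.10, 0.774 and 0.165 CPM in C, I, O and R. H and N were highest, R was lowest with 4 counts, and G lay within the range of the others, unlike for the collagens.

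Lamc1 encodes the γ1 chain, the γ chain shared by most laminins. It stood at 128.2, 507.8, 205.2 and 152.7 CPM in A, G, M and P, at 123.2, 119.2, 277.9 and 137.2 CPM in B, H, N and Q, and at 150.2, 183.6, 230.7 and 179.3 CPM in C, I, O and R. G was 3.33 times the median of the other 11 cultures and N was second. Without G, its values spanned 2.33-fold, the narrowest range of the 8 genes.

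None of the 8 genes was called in any comparison of doses by edgeR's quasi-likelihood test with 1 factor of unwanted variation, where a call needs a Benjamini-Hochberg adjusted p under 0.05 over all genes and a log2 fold change over 0.5 in size. All adjusted p of the 8 genes in this test were 1.0. Over all 12271 genes the share called was 0% in each comparison too. At an unadjusted p under 0.05 there were 0 of the 8 for low dose against untreated, where the share over all genes was 0.742%, 0 of 8 for high dose against untreated, where it was 1.19%, and 2 of 8 for high dose against low dose, where it was 1.17%. DESeq2 with the same factor called none of the 8 either, and gave 0, 0 and 2 at an unadjusted p under 0.05, beside 1.03%, 1.61% and 1.74% of all genes. With G left out, edgeR gave 0, 0 and 2, beside 1.99%, 2.34% and 4.24%. With N left out it gave 1, 0 and 3, beside 0.988%, 1.26% and 2.55%, with Lamc1 in the first comparison and Lama5, Lamc1 and Col15a1 in the last. Without a factor it gave 1 (Col18a1), 2 (Col18a1 and Col15a1) and 1 (Lamb3), beside 0.953%, 1.07% and 0.481%. With a replicate block by letter sets it gave 0, 0 and 1 (Lamb3), beside 2.47%, 3.05% and 2.96%. The separate origin of the cultures is not stated in the labels, so these p-values measure the spread between these samples, which may be partly technical.

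Both genes with an unadjusted p under 0.05 had lower levels at the high than at the low dose. Col15a1 had a log2 fold change of -1.95 ± 0.67 (SE) and an unadjusted p of 0.0156 in edgeR's test, and Lamb3 one of -1.49 ± 0.58 (SE) with an unadjusted p of 0.0276. Of 23 alternative settings, each gene was under 0.05 in 20. Lamb3 was not when H or N was left out, and Col15a1 was not without a factor or with the block by letter sets. With at least 10 counts required in every culture, neither was tested. The settings reuse the same cultures, so they are not independent of each other. From these samples the study listed Col15a1 among matrix genes raised at the low dose and Lamb3 among those lowered at the high dose. Their direction is therefore not independent evidence. Against untreated cultures at those doses, edgeR's test here gave unadjusted p of 0.334 for Col15a1 and 0.235 for Lamb3, and called neither. Against untreated cultures, Col15a1 had log2 fold changes of 0.68 ± 0.67 (SE) at the low dose and -1.26 ± 0.72 (SE) at the high dose. Without G these were 1.69 and -0.34, without A -0.25 and -2.40, and without P 1.52 and -0.17. Lamb3 had 0.75 ± 0.57 (SE) and -0.74 ± 0.59 (SE) in the same comparisons, and 0.56 and -1.06 without G.

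None of the other 6 genes had an unadjusted p under 0.05 in edgeR's test over all 12 cultures. For Col4a1 the log2 fold change was 0.39 ± 0.51 (SE) at the low dose and -0.19 ± 0.51 (SE) at the high dose against untreated, and -0.58 ± 0.51 (SE) between the doses. The last of these turned to 0.33 when culture N was left out, and the first to -0.57. For Lamc1 the values were -0.12 ± 0.18, 0.09 ± 0.18 and 0.21 ± 0.17 (SE), the smallest errors among the 8. Lama5 was at 0.33 ± 0.36 and 0.42 ± 0.35 (SE) at the high dose against untreated and low dose cultures. Without N, the log2 fold changes between the doses were 0.86 ± 0.31 (SE) for Lama5 and 0.43 ± 0.12 (SE) for Lamc1. Col18a1 had its largest log2 fold change at the high dose against untreated, -0.69 ± 0.40 (SE), which was -0.31 ± 0.25 (SE) without G and -1.22 without P. Lama4 was at -0.36 ± 0.52 and -0.47 ± 0.52 (SE) against untreated at the low and high dose, and at 0.15 ± 0.22 and 0.07 ± 0.22 (SE) without G. Lamb2 was between -0.08 and 0.02 in the 3 comparisons. The median over the 8 genes was -0.09, -0.33 and -0.25 for low dose against untreated, high dose against untreated and high dose against low dose, beside 0.01, 0.00 and -0.01 over all genes. Of the 8, 3 were above 0 in the first comparison, 2 in the second and 3 in the last.

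**Figure D2:**
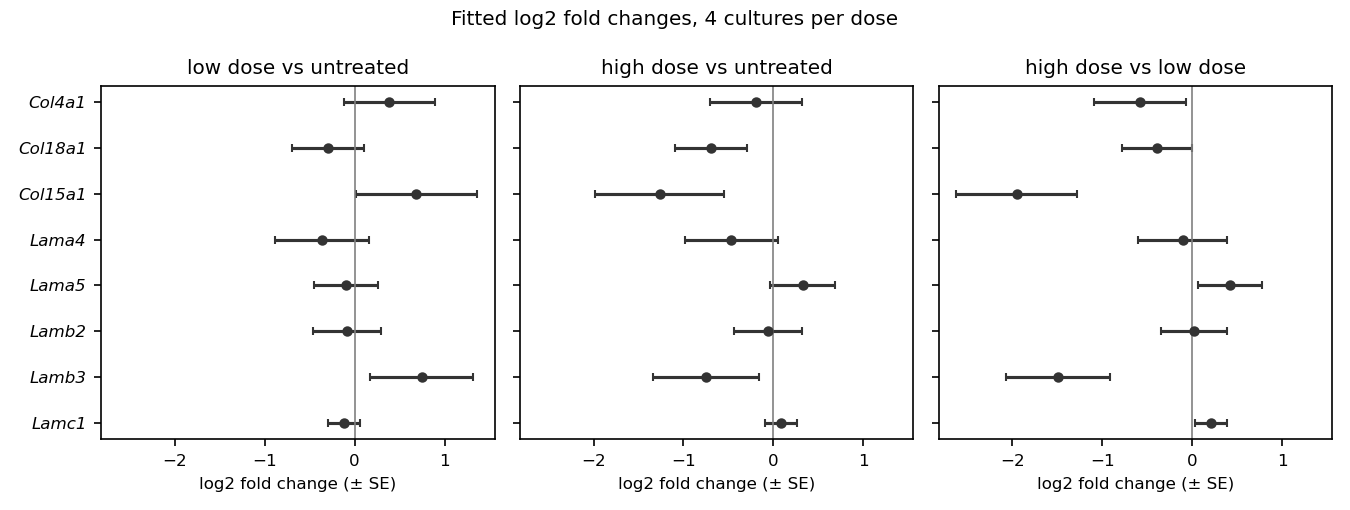
Log2 fold change of each gene in the 3 comparisons from edgeR with 1 factor of unwanted variation, with 4 cultures per condition. Points are fitted values and bars are 1 SE. The values farthest from 0 are those of Col15a1 and Lamb3 for high dose against low dose, at -1.95 and -1.49, and the values of Lamc1 stay within 0.21 of 0.

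Compared gene by gene on the mean of log2(CPM + 1), no gene separated the conditions. No group of cultures lay wholly above or below another for any of the 8 genes, where the share over all genes was 0.407% for low dose against untreated, 0.685% for high dose against untreated and 1.19% for high dose against low dose. A two-sided exact permutation test has 70 ways to split 8 cultures into 4 and 4 and can give no p below 0.0286. Its lowest p was 0.0571 for Lamb3 at the high against the low dose, a difference of -0.78. Next was Col15a1 in the same comparison, with a difference of -0.95 and an exact p of 0.0857. Adjusted over all genes tested, both exact permutation p were 1.0. The highest of the 24 exact p of the 8 genes was 0.943. Without G, the difference for Col18a1 at the high dose against untreated went from -1.18 to -0.22 (exact permutation p of 0.286 and 0.543), and that for Col4a1 from -0.91 to 0.0092 (exact permutation p of 0.543 and 0.971).

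Within the letter sets the high dose culture was below the low dose culture in all 4 sets for 2 of the 8 genes, and above it in all 4 for none. Over all genes tested the shares were 11.1% lower and 11.7% higher. The 2 genes were Lamb3, with differences of log2(CPM + 1) of -0.09 for set A-B-C, -1.02 for G-H-I, -1.10 for M-N-O and -0.90 for P-Q-R, and Col18a1, with -0.03, -0.23, -0.79 and -0.42. Set M-N-O held the lowest difference for each of the 8 genes, and Lama5, Lamb2 and Lamc1 were below 0 only there. For Col4a1 it was -1.91 in that set and 0.27 to 0.31 in the other 3, where the high dose culture was the higher. Col15a1 ran from 0.10 in A-B-C to -2.07 in M-N-O. Against untreated cultures, no gene moved the same way in all 4 sets at the low dose, where the shares over all genes were 4.06% higher and 5.28% lower, or at the high dose, where they were 5.22% higher and 5.22% lower.

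**Figure D3:**
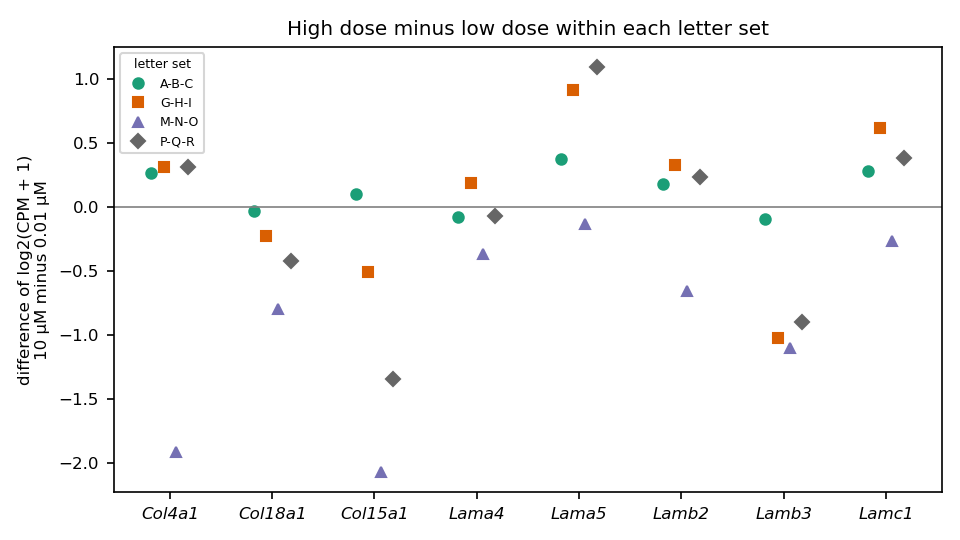
Difference of log2(CPM + 1) between the high dose and the low dose culture of each letter set, for the 8 genes. Each point is 1 set. All 4 points of Lamb3 and Col18a1 lie below 0, and set M-N-O, which holds culture N, gives -1.91 for Col4a1 and -2.07 for Col15a1.

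In culture G the collagen genes and Lama4 stood highest above the other cultures. The ratio of G to the median of the other 11 cultures was 53.4 for Col15a1, 16.3 for Col18a1, 14.6 for Col4a1 and 7.66 for Lama4, then 3.33 for Lamc1, 2.20 for Lamb2, 1.46 for Lama5 and 0.647 for Lamb3. In culture N, set against the mean of M and O, Col15a1 again had the largest ratio, but the order below it differed. The ratio was 9.53 for Col15a1 and 4.00 for Col4a1, 2.46 for Lamb3, 1.67 for Col18a1, 1.55 for Lamb2, 1.35 for Lama4, and 1.28 for Lama5 and Lamc1. Col18a1 and Lama4, which were far above the other cultures in G, were closer to the level of their set in N. Col18a1 in N, at 19.5 CPM, was still second only to G among the 12 cultures.

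Some markers of other cells moved with these cultures. The summed fibroblast markers reached 2288 CPM in G and 3752 CPM in N against 342.7 to 776.8 CPM elsewhere. Of the 10 fibroblast markers, 5 were highest in G and 7 were higher in N than in M and O. Mgp was lowest in G, at 220.0 CPM against 226.0 to 404.4 CPM elsewhere. Col1a1, the α1 chain of collagen I, stood at 502.5 CPM in G and 1265 CPM in N, against 3.83 to 214.4 CPM elsewhere. The meningeal and perivascular fibroblast markers Dcn, Lum and Slc6a13 were at 68.3, 34.8 and 40.0 CPM in G, and in N at 0.587, 0.196 and 0 CPM. Summed endothelial markers were 64.8 CPM in G against 3.30 to 14.1 CPM elsewhere, mostly Cdh5 with 28.5 CPM and Flt1 with 15.4 CPM. Of the 9 endothelial markers in the table, 5 were highest in G, among them Kdr with 12.7 CPM against at most 5.69 elsewhere and Tie1 with 5.84 CPM against at most 1.81. Tek was lowest in G, Pecam1 stood there at 0.778 CPM in a range of 0.124 to 4.90 elsewhere, Cldn5 at 0.584 CPM in a range of 0 to 1.54, and Erg had at most 3 counts in every culture. Among mural cell markers, Pdgfrb was at 71.9 CPM in G and 34.1 CPM in N, Acta2 at 1.23 and 109.4 CPM, and Higd1b had at most 3 counts in every culture. Of the 10 mural markers, 5 were highest in G and 4 were higher in N than in M and O. The 5 include Higd1b, with 2 counts in G, and Abcc9, with 1.10 CPM in G against at most 1.03 CPM elsewhere. The 4 include Myh11, with 11.29 CPM in N against 11.25 CPM in M. Tagln was lowest in G, at 10.6 CPM against at least 14.2 CPM elsewhere, and Abcc9 was lowest in N, at 0.261 CPM. Summed mural markers were highest in A-B-C, 546.8 to 643.1 CPM, mostly from Tagln, and lay between 36.9 and 338.8 CPM elsewhere. Summed microglia markers were also highest in N and G, at 1535 and 1126 CPM against 41.7 to 1021 CPM. All 10 were higher in N than in M and O, but only 2 of the 10 were highest in G. Cx3cr1 stood at 0.584 CPM in G, 0.201 times the median of the other 11 cultures. The part of these cells in the levels of the 8 genes was not tested.

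**Figure D4:**
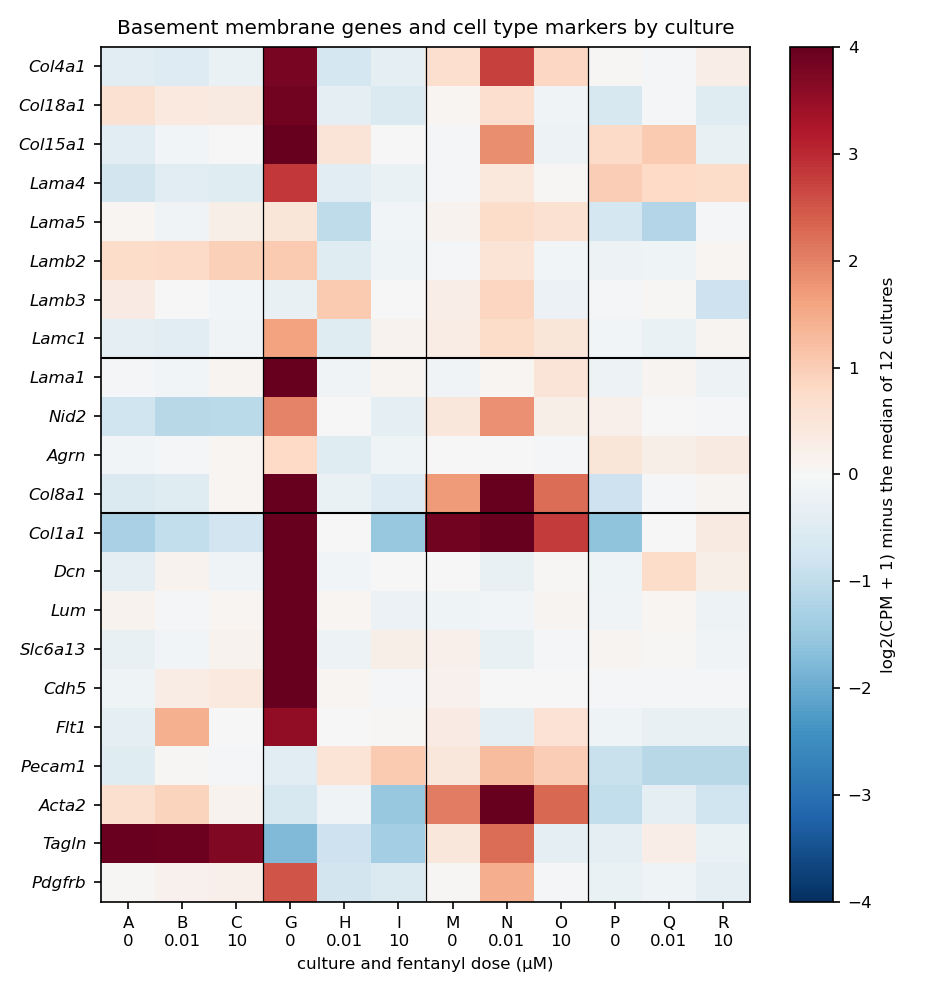
Log2(CPM + 1) of each gene minus its median over the 12 cultures, by culture and fentanyl dose, with colours capped at 4 in either direction. The top block holds the 8 genes, the middle block other basement membrane genes and the bottom block markers of fibroblasts, endothelial and mural cells. The column of G is high for the collagens, Lama1, Dcn, Lum, Slc6a13 and Cdh5, and that of N for Col4a1, Col8a1, Col1a1 and Acta2.

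Other chains were examined by the same measures. Lama1, the α1 chain of early embryonic and pial basement membranes, was all but confined to G in these 12 cultures, with 857 counts or 55.6 CPM there and 1 to 12 counts in each of the others, and it did not pass the filter on low counts. Lamc3 followed it at a lower level, with 45 counts in G and at most 9 elsewhere. Col4a3 and Col4a4, which encode the α3 and α4 chains of the kidney and lung collagen IV network, were highest in N, with 9.27 and 5.48 CPM, and second in G, with 3.24 and 2.08 CPM. Col4a4 had a log2 fold change of -2.12 ± 0.88 (SE) at the high against the low dose, with an unadjusted p of 0.0354 and an adjusted p of 1.0 in edgeR's test. Nid2, a nidogen, was high in G (100.6 CPM) and N (91.4 CPM), and 11 to 34.2 CPM elsewhere. Agrn, the heparan sulfate proteoglycan that clusters acetylcholine receptors at the neuromuscular junction, ranged only from 60.4 to 149.8 CPM, with G highest.

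Proteins that bind to, sense or build the basement membrane gave no call either. Of 23 linkers and minor components listed, 17 have a row and 16 were tested, and at an unadjusted p under 0.05 there were 0, 1 and 0 in the 3 comparisons. The 1 was Tinagl1, a matricellular protein, at -1.41 ± 0.62 (SE) for high dose against untreated, with an unadjusted p of 0.0440. It stood at 21.4 CPM in G and at most 2.81 CPM elsewhere. Of 16 receptors 13 were tested, among them the laminin receptors Itga6, Itga7, Itgb1, Itgb4 and Dag1, and none had an unadjusted p under 0.05 in edgeR's test or was called. The largest log2 fold changes belonged to Itga1, the α1 integrin that binds collagen IV, with 0.66 ± 0.73 (SE) at the low dose against untreated and -0.88 ± 0.74 (SE) between the doses. Itga1 stood at 36.1 CPM in N and at 1.54 to 4.31 CPM in the other low dose cultures. At the high dose against untreated the largest was that of Ddr2, a collagen receptor kinase, with -0.33 ± 0.39 (SE), and it stood at 75.95 CPM in G and at 6.49 to 20.9 CPM elsewhere. Of 17 genes for collagen folding, hydroxylation and crosslinking 16 were tested, again with 0 called and 0 at an unadjusted p under 0.05. Tgm2, a transglutaminase, had the largest values against untreated, 0.74 ± 0.57 and 0.72 ± 0.58 (SE), and stood at 57.4 CPM in N, 52.1 CPM in G and at most 30.7 CPM elsewhere. Loxl2, a lysyl oxidase that crosslinks collagen IV, had the largest between the doses, -1.12 ± 0.56 (SE). It stood at 55.6 CPM in G, 63.1 CPM in N and at most 15.1 CPM elsewhere.

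The genes whose levels ran most like those of Col4a1 over the 12 cultures, by Pearson's r of log2(CPM + 1) after the mean of each letter set was subtracted, were Rxra (0.994), Pdgfrb (0.992), Ptgr1 (0.991), Col8a1 (0.991) and Crim1 (0.990). These values rest largely on G and N, and the cultures of a set share their subtracted mean. Over the 9 cultures without set G-H-I they were Itga11 (0.989), Fam111a (0.988), Epha2 (0.987), Crim1 (0.986) and Itga1 (0.984). Itga11, an integrin chain that binds fibrillar collagen, had an r of only 0.197 over all 12, since it stood at 114.5 CPM in N and at 0.454 CPM in G. For Lamc1 the nearest genes over 12 cultures were St3gal1 (0.991), Prrx1 (0.990), Itpripl2 (0.989), Ano6 (0.988) and Myof (0.988). Over the 9 cultures they were Cyp20a1 (0.986), Tbc1d25 (0.973), Prrx1 (0.963), Fam167a (0.950) and Dnmt1 (0.949). Tbc1d25 had an r of -0.45 over all 12. Each list holds the highest r over all other genes tested, so its values are high by selection.

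Among the 8 genes themselves, the pair that ran together most closely in both sets of cultures was Col4a1 and Lamb2, with r of 0.980 over 12 and 0.941 over 9. Lama5 and Lamc1 gave 0.846 and 0.895. The pair of Col18a1 and Lama4 gave 0.969 over 12 cultures and 0.293 over 9, where G was absent. Lamb3 ran against Lama5, at -0.70 over 12 and -0.42 over 9, and had a positive r with Col15a1 only in the 9, 0.828 against -0.04 over 12.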

How the data were processed

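Per the labels and the study's methods, poly(A) RNA libraries (TruSeq RNA v2) were sequenced, and the authors mapped reads to the rn6 build using STAR and tallied genes using featureCounts. The table holds the raw counts as deposited, not normalized. The annotation is not given in the sources used here, and the kit keeps no strand, so reads of overlapping antisense genes cannot be told apart. The table has 17337 symbols, 2226 without a count, and 0 columns of other samples. The members and lists were chosen with earlier results of these data known.

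Counts were scaled by TMM and filtered by filterByExpr (12271 genes kept) in edgeR 4.0.16 (R 4.3.3). The study names RUVseq and edgeR without the number of factors or the test. Here 1 RUVs factor was computed from log-transformed scaled counts (1 added), using replicates within a dose and taking every kept gene as a control. The quasi-likelihood test was made over all 12 cultures for 3 comparisons, with Benjamini-Hochberg adjustment over all genes, an adjusted p threshold of 0.05 and a log2 fold change threshold of 0.5. SEs were derived from the quasi-likelihood statistic. Single genes were also compared by exact two-sided permutation tests on log2(CPM + 1) with Python 3 and scipy, adjusted over all genes tested rather than over the 8 genes. The procedure was tested on simulated counts. These had less spread between replicates than the cultures here, and no culture set apart as G and N are. That test therefore cannot show how many real changes would be missed in these data.

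All members were named, with other collagen IV and laminin chains, Nid2 and Agrn; 1 item is not reported here. Of receptors and biosynthesis genes, those called and the 1 of largest change per comparison were named, and for Col4a1 and Lamc1 the 5 most alike genes. Tinagl1, Itga11 and the likeness between members were singled out after their values were seen. Alternatives were no factor or 2 factors, a replicate block by letter sets with and without G-H-I, DESeq2 1.42.0, its size factors, no filter, at least 10 counts in every culture, each culture left out, and for permutation tests an offset of 0.1. Fits with 1 factor and no set G-H-I, and with 2 factors or a block and no culture G, were added after the data were seen. Counts give a precision that covers counting error only. Member sequences and gene lengths were not used here.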

Additional observations from a re-analysis of the deposited data

Results flagged for a closer look

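Of 42 groups of 4 cultures examined (the 8 genes and Lama1, Lamc3, Col4a3, Col4a4, Nid2 and Agrn at 3 doses), 12 held a culture whose gap to its nearest neighbour divided by the group's range was above Dixon's 95% critical value. That value gives about 1 in 20 groups by chance only for normally distributed values, and the CPM values were not tested for this. In all 12 groups the culture set apart was the highest, and the groups of different genes share cultures. The 12 of 42 are therefore not compared with a chance rate. Of the 24 groups of the 8 genes, 6 held such a culture.

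Culture G was set apart in 5 untreated groups. Col4a1 stood at 519.9 CPM there against at most 59.0 in the other untreated cultures, Col18a1 at 184.7 against 18.9, and Col15a1 at 34.8 against 1.83. Lama1 stood at 55.6 CPM against 0.177 and Lamc3 at 2.92 against 0.295. Lama5 and Lamb3 were not set apart there.

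Culture N was set apart in 4 low dose groups, with 249.4 CPM against 35.6 for Col4a1, 277.9 against 137.2 for Lamc1, 9.27 against 0.963 for Col4a3 and 5.48 against 0.688 for Col4a4. The other groups were Lamb2 at the high dose, with C at 183.5 CPM against 99.2, Lamc3 at the low dose, with B at 0.539 CPM against 0.138, and Col4a4 at the high dose, with O at 0.645 CPM against 0.237. The last 2 rest on 7 and 10 counts.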

How the results depend on the processing

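No alternative called any of the 8 genes: in 69 combinations of 23 settings and 3 comparisons the count stayed at 0. Counts over all genes stayed at 0 in each of the 12 fits with 1 factor that left out 1 culture. The counts that were not 0, for high dose against untreated and for high against low dose, were 1 and 1 with 2 factors, 3 and 1 with DESeq2, 2 and 5 with the block and without set G-H-I, 4 and 10 with 2 factors and without culture G, and 15 and 14 with the block and without culture G. The low dose against untreated gave 0 in all settings. Requiring at least 10 counts in every culture removed Lamb3 and Col15a1, which then have no value. The 48 permutation values of the 8 genes with another offset or other size factors kept their direction. The letter sets are not stated to pair the cultures, so the block is given here only as an alternative.

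Of 546 alternative log2 fold changes of the 8 genes, 65 changed sign, all of them short of a call before and after, and the cause was not tested. Without a factor, these were, for low dose against untreated Col4a1 -0.95 and Col15a1 -1.97, for high dose against untreated Lamc1 -0.42. With a replicate block by letter sets, these were, for low dose against untreated Col4a1 -0.72 and Col15a1 -0.32, for high dose against untreated Lamc1 -0.29, for high against low dose Lamb2 -0.0099. With the block and without set G-H-I, these were, for low dose against untreated Col18a1 0.33, Lama4 0.19, Lama5 0.0064, Lamb2 0.24 and Lamc1 0.085, for high dose against untreated Col4a1 0.20, Lama4 0.011 and Lamb2 0.15, for high against low dose Lamb2 -0.085. With 1 factor and without set G-H-I, these were, for low dose against untreated Col18a1 0.30, Lama4 0.29, Lama5 0.039, Lamb2 0.17 and Lamc1 0.15, for high dose against untreated Col4a1 0.17, Lama4 0.12 and Lamb2 0.10, for high against low dose Lamb2 -0.060. With 2 factors and without culture G, these were, for low dose against untreated Col18a1 0.16, Lama4 0.12 and Lamb2 0.11, for high dose against untreated Lama4 0.039 and Lamb2 0.081, for high against low dose Lamb2 -0.029. With the block and without culture G, these were, for low dose against untreated Col18a1 0.31, Lama4 0.15, Lamb2 0.19 and Lamc1 0.026, for high dose against untreated Col4a1 0.31, Lama4 0.062 and Lamb2 0.21. When each culture was left out in turn, the log2 fold changes that turned in some fit ranged, for low dose against untreated Col15a1 -0.25 to 1.69, Col18a1 -0.87 to 0.14, Col4a1 -0.57 to 0.99, Lama4 -1.04 to 0.19, Lama5 -0.58 to 0.10, Lamb2 -0.37 to 0.19 and Lamc1 -0.37 to 0.024, for high dose against untreated Col4a1 -0.65 to 0.012, Lama4 -1.15 to 0.10, Lamb2 -0.38 to 0.21 and Lamc1 -0.16 to 0.20, for high against low dose Col4a1 -0.97 to 0.33, Lama4 -0.51 to 0.28 and Lamb2 -0.32 to 0.28. Lamb3 kept its direction in all fits that tested it, and Col15a1 kept its direction between the doses. The fits without set G-H-I and 1 factor, and those without culture G with 2 factors or a block, were chosen after seeing the data.

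Depth limits what can be said of Lamb3 and Col15a1, which had 4 counts in the lowest culture. The spread between cultures limits all 8 genes.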
